A study of Mus musculus with 12 samples.

Results

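The genes described here are 32 genes of the SREBP pathway, the route by which animal cells set their synthesis of cholesterol and fatty acids. They were chosen by name from what is known of the pathway, by a rule that uses no measured value but was written with earlier results of these data known, and all 32 were found among the 16386 genes of the PSC4 table and the 15309 genes of the KPC4 table. They comprise 19 enzymes of the sterol branch, 7 enzymes of the fatty acid branch and 6 genes of sterol sensing and transport. All 32 passed the filter on low counts in every fit, with at least 478 counts in any library.

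SREBPs are membrane-bound transcription factors, made from Srebf1 and Srebf2, that Scap carries from the endoplasmic reticulum to the Golgi when sterols are scarce. There the proteases Mbtps1 and Mbtps2 release the part that enters the nucleus and raises transcription of lipid synthesis genes. Insig1 and Insig2 hold Scap back when sterols are plentiful, and Insig1 is itself a target of the factors. In pancreatic stellate cells, the matrix-producing mesenchymal cells of the pancreas, loss of lipid droplets accompanies activation, while pancreatic tumour cells are known for high lipid turnover.

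PSC4 is a mouse pancreatic stellate cell line and KPC4 a mouse pancreatic cancer cell line, and total RNA of 12 cultures was sequenced, 3 per group. For PSC4, donor KPC4 cells received vehicle or 10 µM gemcitabine, a nucleoside analogue, for 6 h, were washed, and conditioned starvation medium for 14 h; PSC4 cells then stayed in the vehicle-derived medium (Control-SU) or the gemcitabine-derived medium (Gem-SU) for 24 h. For KPC4, PSC4 cells spent 6 h in either medium and, after a wash, conditioned fresh starvation medium for 18 h, giving Control-PSC-SU and Gem-PSC-SU, in which KPC4 cells then stayed for 24 h. Both lines were maintained in medium with 10% fetal bovine serum, and the serum content of the starvation medium is not given in the sources used here. All 4 groups received conditioned starvation medium, none received the drug directly, and each cell type was represented by a single line. The mouse strain was not given in the sources used here. The labels call the cultures biological replicates without saying how they were kept apart, so the p-values measure the spread between these cultures.

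Library totals ran from 26354328 to 38138356 counts. Levels are given as CPM, read counts scaled to a common library size, with TMM scaling within each line. The summed level of 8 stellate or fibroblast markers was 7784 to 8383 CPM in PSC4 with Control-SU and 2387 to 3558 CPM with Gem-SU, and 6 of the 8 were lower with Gem-SU in edgeR's quasi-likelihood test at a Benjamini-Hochberg adjusted p under 0.05, the threshold used throughout, against 22.0% of all genes. The other 2 did not pass and had higher means with Gem-SU, Acta2 with 15.7 ± 2.75 CPM (SD, n = 3) and 26.9 ± 10.1 CPM (adjusted p 0.0538, edgeR) and Des with 2.84 ± 0.152 and 3.36 ± 1.29 CPM. The 6 epithelial markers summed to 3.51 to 6.00 CPM in PSC4 with Control-SU and 10.2 to 14.8 CPM with Gem-SU, where Epcam and Cdh1 were not among the genes analysed. In KPC4 they summed to 5965 to 7390 CPM with Control-PSC-SU and 5958 to 7417 CPM with Gem-PSC-SU, and the stellate list to 2417 to 2806 CPM and 1848 to 2208 CPM, with 0 of its 4 tested genes called. Nearly all of the stellate sum in KPC4 was Vim, with means of 2588 CPM with Control-PSC-SU and 2053 CPM with Gem-PSC-SU. Every other stellate marker had a mean of at most 21.9 CPM in KPC4, and Pdgfrb and Des were not among the genes analysed there. Macrophage, endothelial and adipocyte markers summed to at most 7.01 CPM per list in any library. The part of these marker shifts in the results below was not tested, and fewer cells of a kind and less RNA per cell cannot be told apart in bulk RNA.

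Promoter sequence was available for 26 of the 32 genes, as 34 entries of RefSeq on GRCm38.p6. The other 6, Fdps, Fdft1, Sqle, Stard4, Scd1 and Scd2, had no entry and were not searched. All 6 were among the genes called lower in PSC4 with Gem-SU, so the motif counts leave out part of that set. The 250 bases before the annotated start are shown for 5 genes. Hmgcs1 was chosen as the gene with a match to a sterol element, Nsdhl and Srebf2 as genes whose RNA was lower in PSC4 with Gem-SU, and Insig1 and Insig2 as the pair that moved in opposite directions there. Capitals mark matches to CCAAT on either strand, the box bound by NF-Y (ATTGG where it lies on the other strand), and in Hmgcs1 also the match to the looser sterol element.
Hmgcs1 (chr13:119690101-119690350, + strand): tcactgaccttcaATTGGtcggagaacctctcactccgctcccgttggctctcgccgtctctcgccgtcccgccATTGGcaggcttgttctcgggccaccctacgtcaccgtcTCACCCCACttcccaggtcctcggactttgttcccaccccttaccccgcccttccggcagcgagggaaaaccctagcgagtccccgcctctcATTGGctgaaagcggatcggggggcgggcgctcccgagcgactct
Nsdhl (chrX:72918271-72918520, + strand): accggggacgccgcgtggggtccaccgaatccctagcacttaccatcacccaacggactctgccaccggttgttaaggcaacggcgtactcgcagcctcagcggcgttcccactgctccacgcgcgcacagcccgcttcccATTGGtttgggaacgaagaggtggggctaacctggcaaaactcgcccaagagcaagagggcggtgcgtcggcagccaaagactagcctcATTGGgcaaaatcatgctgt
Srebf2 (chr15:82147019-82147268, + strand): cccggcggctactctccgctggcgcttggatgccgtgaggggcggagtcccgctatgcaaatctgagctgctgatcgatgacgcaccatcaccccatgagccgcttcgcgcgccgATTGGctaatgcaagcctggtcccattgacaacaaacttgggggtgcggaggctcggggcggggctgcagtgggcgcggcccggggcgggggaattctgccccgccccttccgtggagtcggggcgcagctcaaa
Insig1 (chr5:28071162-28071411, + strand): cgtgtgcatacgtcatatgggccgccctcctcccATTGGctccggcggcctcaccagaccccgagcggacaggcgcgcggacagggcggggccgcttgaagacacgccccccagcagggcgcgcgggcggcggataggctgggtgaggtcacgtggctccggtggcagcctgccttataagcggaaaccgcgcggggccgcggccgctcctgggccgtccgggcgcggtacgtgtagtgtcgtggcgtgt
Insig2 (chr1:121332590-121332839, - strand, the most upstream of its annotated starts): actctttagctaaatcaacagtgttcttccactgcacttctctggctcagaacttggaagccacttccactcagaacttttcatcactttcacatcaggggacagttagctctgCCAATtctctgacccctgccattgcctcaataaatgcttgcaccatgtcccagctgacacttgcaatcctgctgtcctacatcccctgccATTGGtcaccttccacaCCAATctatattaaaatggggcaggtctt

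Both strands were searched for exact matches to each motif, so sites that deviate from its letters were not counted. For the motifs, all genes are the 27025 genes with a promoter entry, whether or not these cells express them. All promoters are their 32851 entries. A gene counts if any of its promoter entries holds the motif. The share among expressed genes alone was not taken. A stricter, longer form of the sterol regulatory element, whose matches all also match the looser TCACNCCAC, was found in 0 of the 26 genes. Its share was 0.0814% of all genes and 0.0731% of all promoters of this length. TCACNCCAC was found in Hmgcs1 alone of the 26, at position -137 from the start, against 1.22% of all genes and 1.05% of all promoters. CCAAT occurred in 21 of the 26 genes, against 37.5% of all genes, and in 22 of the 34 entries, against 33.8% of all promoters. The GC box GGGCGG, which Sp1 binds, also occurred in 21 of the 26 genes, against 35.4% of all genes, and in 24 of the 34 entries, against 32.7% of all promoters. The E-box CACGTG occurred in 5 of the 26 genes, against 6.86% of all genes and 6.02% of all promoters. Of the genes printed, Hmgcs1 held 3 CCAAT boxes, Insig2 held 3, Nsdhl held 2, and Srebf2 and Insig1 held 1 each. The other 2 entries of Insig2 held none, and no entry of Acat2, Scap, Acaca, Acly or Elovl6 held one, of which Elovl6 fell in PSC4.

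The first comparison asked how stellate cells respond to medium from gemcitabine-treated tumour cells. In PSC4, 15 of the 32 genes passed the test, 14 lower and 1 higher with Gem-SU (edgeR quasi-likelihood, p adjusted by Benjamini-Hochberg over 13347 genes). Of all genes tested, 46.3% passed in either direction, 22.0% lower and 24.3% higher, so the share of the 32 that passed (46.9%) was close to the background and their split between directions (43.8% lower) was not. The 14 lower genes were Fdps, Fdft1, Sqle, Nsdhl, Ebp, Sc5d and Dhcr7 of the sterol branch, Scd1, Scd2, Elovl6 and Acss2 of the fatty acid branch, and Insig2, Srebf2 and Stard4 among the regulators. Insig1 was the gene that rose. The 2 groups of libraries did not overlap for 15 of the 32 genes, 14 of them lower, against 56.4% of all genes, 27.1% lower and 29.3% higher; this set held Acat2 and not Ebp.

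**Figure D1:**
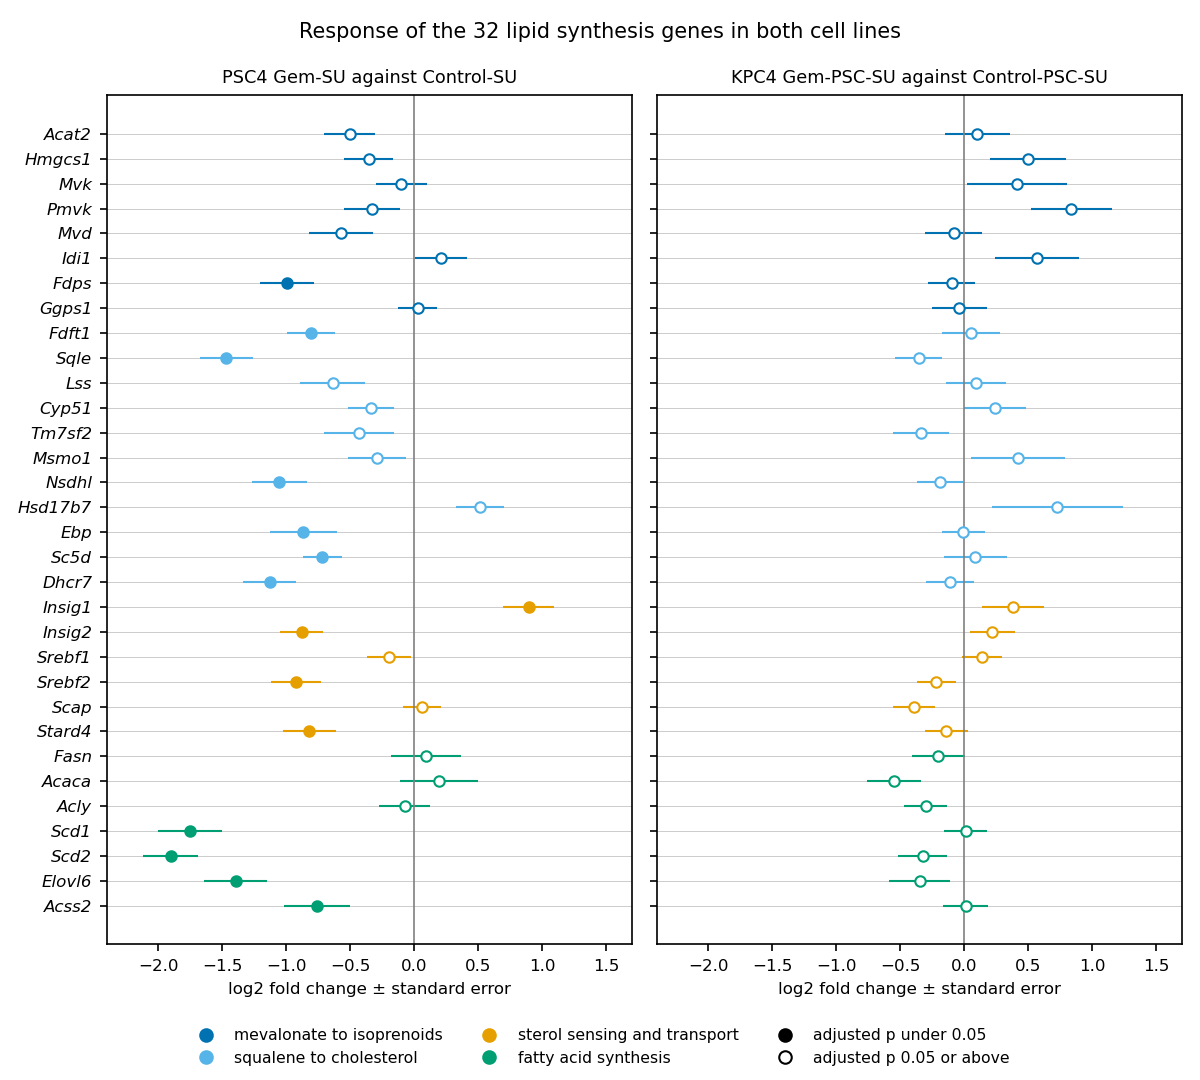
Log2 fold change with its standard error for each of the 32 genes in PSC4 (Gem-SU against Control-SU) and KPC4 (Gem-PSC-SU against Control-PSC-SU); colours give the role, filled points an adjusted p under 0.05 by edgeR's quasi-likelihood test. In PSC4, 14 filled points lie below 0 and 1 above; in KPC4 no point is filled and 16 genes lie on each side of 0.

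The early, mevalonate part of the sterol branch runs from acetyl-CoA to the isoprenoid diphosphates. Of its 8 enzymes 1 fell in PSC4 (12.5%, against 22.0% of all genes). This was Fdps, which makes farnesyl diphosphate, with a log2 fold change of -0.99 ± 0.21 (SE) and an adjusted p of 0.0056 by edgeR's quasi-likelihood test. Its level was 521 ± 121 CPM (SD, n = 3) with Control-SU and 261 ± 43.1 CPM with Gem-SU. The other 7 did not pass the test: Acat2, which joins acetyl-CoA units (-0.50), Hmgcs1, which makes HMG-CoA (-0.36), Mvk (-0.10), Pmvk (-0.33) and Mvd (-0.57), which phosphorylate and decarboxylate mevalonate, Idi1, the isopentenyl diphosphate isomerase (0.21), and Ggps1, which leads to protein prenylation instead of sterols (0.03). Acat2 missed the threshold with an adjusted p of 0.0634 although its groups did not overlap, with 339, 340 and 500 CPM against 309, 269 and 253 CPM.

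The later part, from the making of squalene to cholesterol, held 6 lower enzymes of 11 (54.5%, against 22.0% of all genes). Whether the early and later parts differ was not tested. Squalene epoxidase, Sqle, which adds the first oxygen, fell the most of the sterol branch. Its level was 437, 529 and 642 CPM in the Control-SU replicates and 232, 168 and 182 CPM in the Gem-SU replicates. Every Gem-SU library was below every Control-SU library, with a log2 fold change of -1.47 ± 0.20 (a 2.76-fold decrease) and an adjusted p of 7.6e-04 by edgeR's quasi-likelihood test.

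Dhcr7, which reduces dehydrocholesterol to cholesterol at the end of the route, measured 40.1, 55.5 and 60.2 CPM with Control-SU and 28.4, 22.4 and 20.4 CPM with Gem-SU. The groups were again apart, with a log2 fold change of -1.13 ± 0.21 and an adjusted p of 0.0027 (edgeR). Nsdhl, a dehydrogenase that takes part in removing the methyl groups of lanosterol, measured 177, 294 and 299 CPM with Control-SU and 128, 112 and 131 CPM with Gem-SU. Its lowest control lay closer to the Gem-SU libraries than to the other controls, and its log2 fold change was -1.05 ± 0.21 with an adjusted p of 0.0045 (edgeR). In Dhcr7, and in Scd1, Elovl6 and Stard4 below, the lowest control was likewise nearer to the highest Gem-SU library than to the next control.

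Squalene synthase, Fdft1 (-0.81), the sterol isomerase Ebp (-0.87) and the sterol desaturase Sc5d (-0.72) also fell, by edgeR's quasi-likelihood test. For Ebp the highest Gem-SU library (70.4 CPM) exceeded the lowest Control-SU library (67.4 CPM), and its call was lost when Control-SU replicate 1 or 3 or Gem-SU replicate 2 or 3 was left out (adjusted p up to 0.10, edgeR). Lanosterol synthase, Lss (-0.64), the lanosterol demethylase Cyp51 (-0.34), the sterol reductase Tm7sf2 (-0.43) and the methylsterol oxygenase Msmo1 (-0.29) did not pass. Hsd17b7, the ketosterol reductase that works with Nsdhl and Msmo1, had a positive log2 fold change of 0.52 ± 0.19 and an adjusted p of 0.0522 (edgeR), with 66.0 ± 12.7 CPM (SD, n = 3) in the controls and 94.3 ± 16.6 CPM with Gem-SU. Under DESeq2 and under the replicate block, Hsd17b7 was called higher and Acat2 and Lss were called lower. Across all 19 sterol enzymes 16 had a negative fold change, and their median log2 fold change was -0.50, beside -0.00 for all genes tested. Without Control-SU replicate 3 that median was -0.30.

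**Figure D2:**
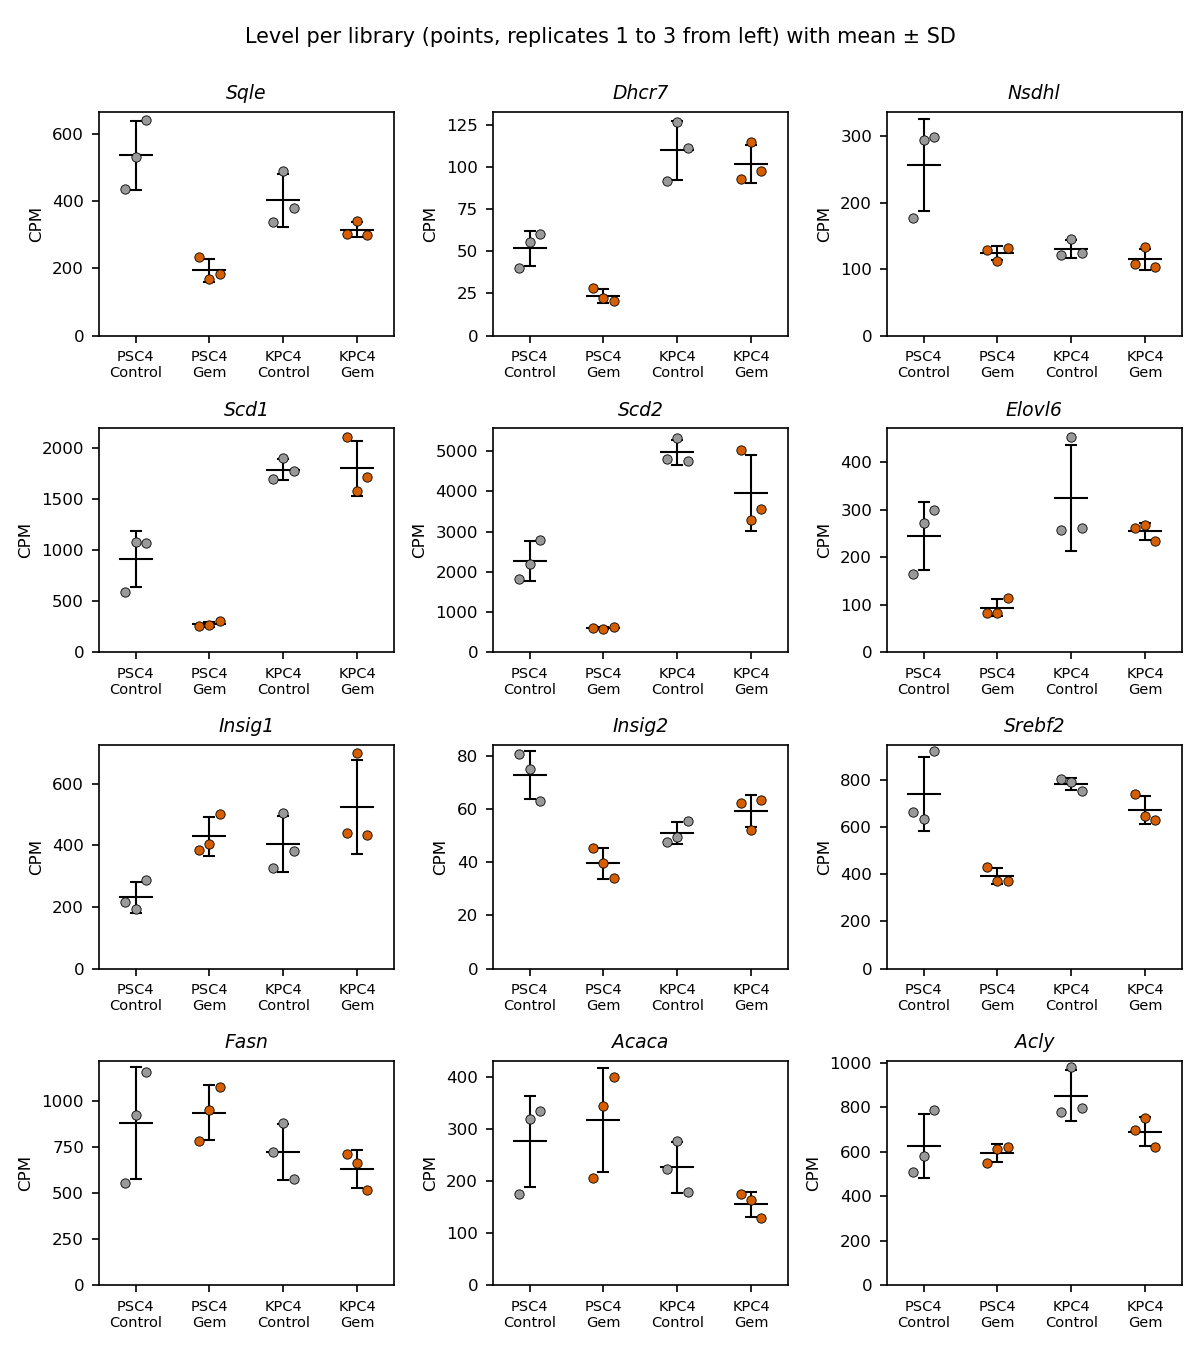
CPM in each of the 12 libraries for 12 of the genes, as points in replicate order with the mean and SD of 3 libraries; grey is the control medium and orange the gemcitabine-derived medium. In PSC4 the points of Sqle, Dhcr7, Nsdhl, Scd1, Scd2, Elovl6, Insig1, Insig2 and Srebf2 do not overlap between the 2 media, while those of Fasn, Acaca and Acly do.

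In the fatty acid branch 3 of the 7 enzymes did not pass the test: Acly, which makes cytosolic acetyl-CoA from citrate (log2 fold change -0.07), Acaca, the acetyl-CoA carboxylase (0.19), and Fasn, the fatty acid synthase (0.09). Fasn measured 555, 927 and 1160 CPM with Control-SU and 785, 952 and 1080 CPM with Gem-SU, so that the Gem-SU libraries lay within the range of the controls. The intervals of these 3 genes are wide, with SEs of 0.20 to 0.31, and their signs changed when single libraries were left out.

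The other 4, Scd1, Scd2, Elovl6 and Acss2, fell. Scd2, a stearoyl-CoA desaturase that makes oleate, measured 1807, 2183 and 2795 CPM with Control-SU and 608, 574 and 633 CPM with Gem-SU. The highest Gem-SU library was far below the lowest control, and the log2 fold change of -1.90 ± 0.21 (a 3.74-fold decrease, adjusted p 3.0e-04 by edgeR) was the largest among the 32 genes. Scd1, its close relative, measured 590, 1075 and 1064 CPM with Control-SU and 252, 260 and 300 CPM with Gem-SU, a log2 fold change of -1.75 ± 0.25 (adjusted p 8.5e-04, edgeR). The 2 desaturases are close in sequence and how reads shared by both were assigned is not given in the sources used here, so their separate levels are uncertain to that extent.

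Elovl6, which elongates palmitate to stearate, the substrate of Scd1 and Scd2, measured 164, 271 and 298 CPM with Control-SU and 82.8, 82.3 and 114 CPM with Gem-SU. The groups did not overlap, and the log2 fold change was -1.39 ± 0.25 with an adjusted p of 0.0023 (edgeR). Acss2, which makes acetyl-CoA from acetate, fell by 0.76 ± 0.26 on the log2 scale with an adjusted p of 0.0391 (edgeR); this call was lost without Control-SU replicate 2 or 3 or Gem-SU replicate 1 or 2 (adjusted p up to 0.14, edgeR). Of the 7 enzymes 4 fell (57.1%, against 22.0% of all genes). The median log2 fold change of the 7 was -0.76, the value of Acss2, beside -0.00 for all genes tested. Summed over the 7, the level was 3839, 5405 and 6508 CPM with Control-SU and 2506, 2856 and 3185 CPM with Gem-SU. In this sum the mean of Scd2 went from 2261 to 605 CPM and that of Scd1 from 910 to 271 CPM. Fasn, Acaca and Acly, also in the sum, were not called.

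Among the regulators, Insig1 and Insig2 moved in opposite directions in PSC4. Insig1 measured 215, 192 and 287 CPM with Control-SU and 385, 403 and 503 CPM with Gem-SU. All Gem-SU libraries were above all controls, with a log2 fold change of 0.89 ± 0.20 and an adjusted p of 0.0068 (edgeR). Insig2, the other protein that retains Scap, measured 80.5, 74.9 and 63.0 CPM with Control-SU and 45.4, 39.6 and 33.8 CPM with Gem-SU. All Gem-SU libraries were below all controls, with a log2 fold change of -0.88 ± 0.17 and an adjusted p of 0.0032 (edgeR). In the authors' deposited table the log2 fold change of Insig2 was -0.56 with an adjusted p of 0.0560.

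Srebf2, the gene of the factor that favours cholesterol synthesis genes, measured 665, 633 and 921 CPM with Control-SU and 430, 370 and 372 CPM with Gem-SU. The groups did not overlap, and the log2 fold change was -0.92 ± 0.19 (adjusted p 0.0052, edgeR). Srebf1, whose products favour fatty acid synthesis genes, measured 124, 89.5 and 133 CPM with Control-SU and 109, 98.6 and 95.6 CPM with Gem-SU. Its groups overlapped and it did not pass (log2 fold change -0.19 ± 0.17, adjusted p 0.39, edgeR).

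Scap measured 151, 131 and 144 CPM with Control-SU and 168, 147 and 130 CPM with Gem-SU. Its groups overlapped throughout, with a log2 fold change of 0.06 ± 0.15. Stard4, which moves cholesterol between membranes, measured 180, 212 and 283 CPM with Control-SU and 109, 123 and 151 CPM with Gem-SU. All Gem-SU libraries were lower (log2 fold change -0.82 ± 0.21, adjusted p 0.0120, edgeR), and without Gem-SU replicate 2 the adjusted p was 0.0560. The authors' deposited table listed an adjusted p under 0.05 in PSC4 for 16 of the 32 genes, 15 lower and 1 higher, against 42.9% of all genes listed there with an adjusted p.

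The PSC4 controls were not uniform for these genes. Control-SU replicate 3 had the highest level in 17 of the 19 sterol enzymes and replicate 1 the lowest in 14, and in the fatty acid branch replicate 3 was highest in 6 of 7 and replicate 1 lowest in all 7. The summed level of the 19 sterol enzymes was 3966, 4942 and 5895 CPM in the 3 controls and 3574, 3142 and 3611 CPM with Gem-SU, so that every Gem-SU sum was below every control sum. Leaving out 1 library at a time, 12 to 17 of the 32 genes passed in PSC4.

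**Figure D3:**
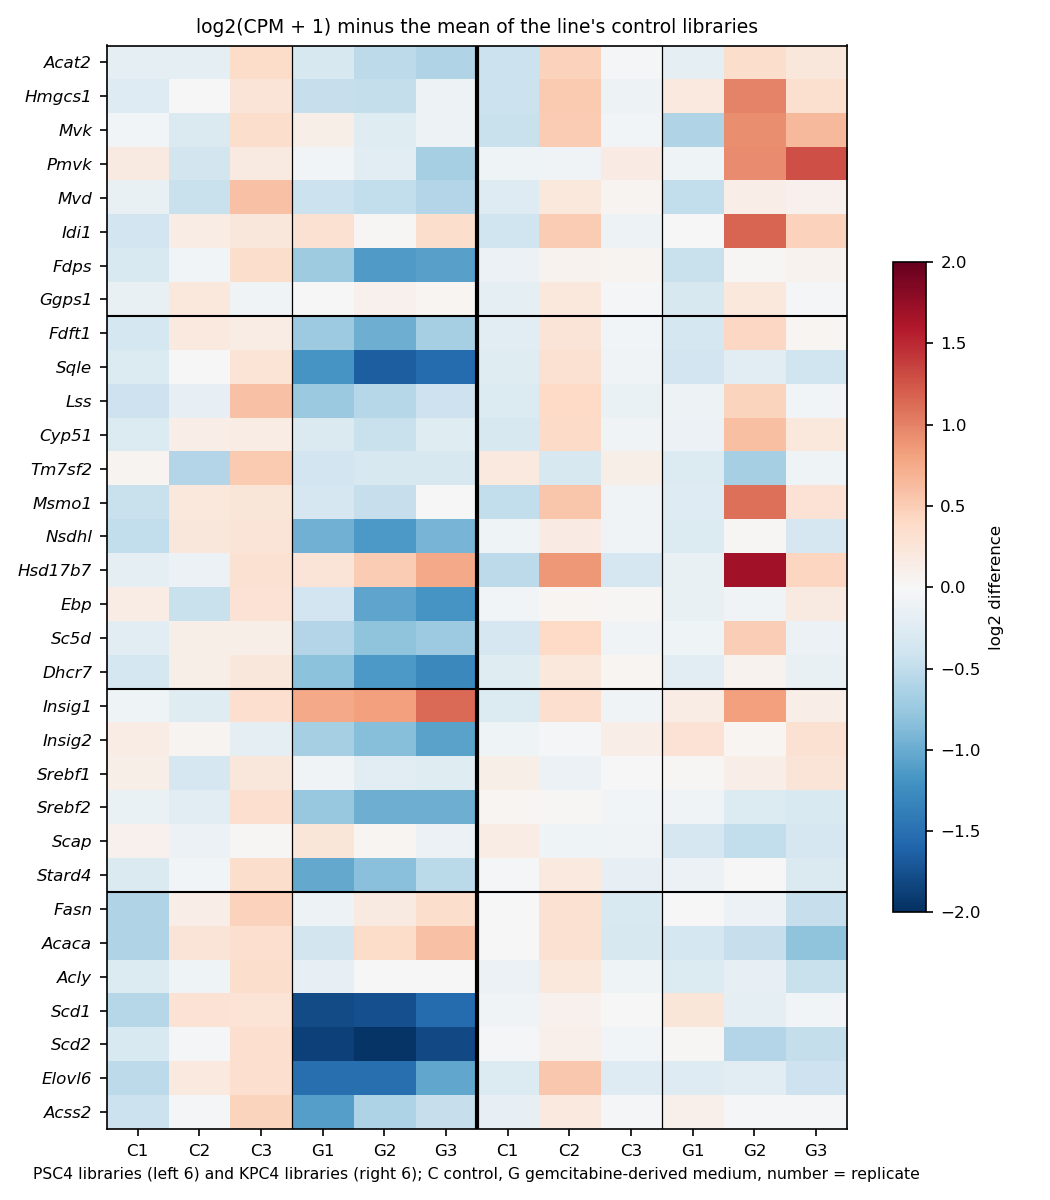
Each cell gives log2(CPM + 1) of a gene (rows, in pathway order) in a library (columns C1 to C3 for control medium and G1 to G3 for gemcitabine-derived medium, PSC4 left and KPC4 right) minus the mean of that line's 3 controls. PSC4 Gem-SU libraries are below the control mean for most of Fdft1 to Dhcr7 and for Scd1, Scd2 and Elovl6 and above it for Insig1; in KPC4 the columns numbered 2 stand high for the sterol enzymes in both media.

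The second comparison concerned KPC4 cells kept in medium of stellate cells after their own time in Gem-SU. In KPC4 0 of the 32 genes passed edgeR's quasi-likelihood test, as did 0 of the 13236 genes tested (0%). DESeq2 also called 0 of the 32, but it did call other genes, as counted in the last section. At an unadjusted p under 0.05 there were 3, Pmvk higher and Scap and Acaca lower, against 17.0% of all genes. The groups did not overlap for 4 genes, all lower with Gem-PSC-SU (Srebf2, Scap, Acaca and Acly), against 22.8% of all genes, 10.9% lower and 11.8% higher. The authors' deposited table listed an adjusted p under 0.05 for 0 of the 32, against 5.17% of all genes listed there with one. Of the 32 fold changes 16 were positive and 16 negative.

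The median log2 fold change was 0.09 in the sterol branch and -0.30 in the fatty acid branch, beside -0.02 for all genes. The sterol median was -0.05 when Control-PSC-SU replicate 1 was left out, -0.11 when Gem-PSC-SU replicate 2 was, and 0.33 when Control-PSC-SU replicate 2 was. The last also brought the fatty acid median to -0.03. Pmvk, which phosphorylates mevalonate phosphate, measured 50.9, 51.4 and 60.7 CPM with Control-PSC-SU and 51.2, 105 and 134 CPM with Gem-PSC-SU. Gem-PSC-SU replicates 2 and 3 were above the controls and replicate 1 was among them, with a log2 fold change of 0.84 ± 0.32 and an adjusted p of 0.24 (edgeR). Without Gem-PSC-SU replicate 1, the library that lay among the controls, Pmvk was called higher (adjusted p 0.014, edgeR), and it was then the 1 gene of the 32 to pass. In KPC4 that fit called more genes in all than any other that left out 1 library, as counted in the last section.

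Sqle, the most reduced sterol enzyme in PSC4, measured 337, 490 and 379 CPM with Control-PSC-SU and 303, 339 and 300 CPM with Gem-PSC-SU. The groups overlapped by a narrow margin (log2 fold change -0.36 ± 0.18, adjusted p 0.36, edgeR). Idi1 measured 234, 443 and 288 CPM with Control-PSC-SU and 308, 693 and 427 CPM with Gem-PSC-SU, higher in each replicate number but overlapping as groups (0.57 ± 0.33, adjusted p 0.41, edgeR).

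In the fatty acid branch, Acaca measured 223, 276 and 179 CPM with Control-PSC-SU and 174, 162 and 128 CPM with Gem-PSC-SU. Its groups did not overlap, with a log2 fold change of -0.55 ± 0.21 and an adjusted p of 0.24 (edgeR). Acly measured 778, 984 and 795 CPM with Control-PSC-SU and 699, 754 and 620 CPM with Gem-PSC-SU, also apart (-0.30 ± 0.17, adjusted p 0.39, edgeR). Scd2 measured 4816, 5342 and 4757 CPM with Control-PSC-SU and 5043, 3296 and 3562 CPM with Gem-PSC-SU, with Gem-PSC-SU replicate 1 inside the control range (-0.33 ± 0.19). Scd1 measured 1693, 1895 and 1768 CPM with Control-PSC-SU and 2099, 1575 and 1716 CPM with Gem-PSC-SU, on both sides of the controls (0.01 ± 0.16).

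Insig1 measured 328, 505 and 381 CPM with Control-PSC-SU and 442, 702 and 435 CPM with Gem-PSC-SU, overlapping (0.38 ± 0.25). Insig2 measured 47.6, 49.5 and 55.6 CPM with Control-PSC-SU and 62.3, 52.2 and 63.2 CPM with Gem-PSC-SU, overlapping in 1 library (0.22 ± 0.17). Neither of the 2 retention genes passed the test in KPC4. Srebf2 measured 803, 791 and 751 CPM with Control-PSC-SU and 740, 647 and 630 CPM with Gem-PSC-SU, without overlap (-0.22 ± 0.15). Srebf1 measured 358, 306 and 332 CPM with Control-PSC-SU and 338, 365 and 395 CPM with Gem-PSC-SU, overlapping (0.14 ± 0.16). Neither gene passed the test in KPC4. Scap measured 127, 108 and 109 CPM with Control-PSC-SU and 90.0, 81.0 and 89.7 CPM with Gem-PSC-SU, without overlap (-0.40 ± 0.16, adjusted p 0.27, edgeR). Stard4 measured 406, 479 and 372 CPM with Control-PSC-SU and 383, 413 and 342 CPM with Gem-PSC-SU, overlapping (-0.14 ± 0.17). Dhcr7 measured 91.6, 127 and 112 CPM with Control-PSC-SU and 93.2, 115 and 97.9 CPM with Gem-PSC-SU, where the Gem-PSC-SU libraries lay within the control range.

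In KPC4 the levels of the sterol enzymes moved with the replicate number in both media. Replicate 2 had the highest level in 17 of the 19 enzymes with Control-PSC-SU and in 15 of 19 with Gem-PSC-SU, and replicate 1 the lowest in 18 and 15. The summed level of the 19 was 4025, 6219 and 4723 CPM with Control-PSC-SU and 4299, 7165 and 5434 CPM with Gem-PSC-SU, higher with Gem-PSC-SU in each of the 3 numbers. With the replicate number as a block in edgeR's quasi-likelihood test, 4 of the 32 genes passed, against 8.85% of all genes, 6.07% higher and 2.78% lower. Hmgcs1 (log2 fold change 0.51, adjusted p 0.039), Idi1 (0.54, adjusted p 0.036) and Hsd17b7 (0.66, adjusted p 0.034) were higher with Gem-PSC-SU in that fit and Acaca was lower (-0.54, adjusted p 0.047). What the replicate number stands for is not given in the sources used here.

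Whether the 2 lines differed in response was tested as an interaction over all 12 libraries, the log2 fold change of PSC4 minus that of KPC4. Of the 32 genes 5 passed edgeR's quasi-likelihood test, all with the lower response in PSC4, against 9.85% of all 13632 genes tested in either direction, 5.10% with a lower and 4.75% with a higher response in PSC4. They were Scd1 (-1.81 ± 0.31, adjusted p 0.0038), Scd2 (-1.63 ± 0.30, adjusted p 0.0050), Insig2 (-1.15 ± 0.24, adjusted p 0.011), Sqle (-1.16 ± 0.28, adjusted p 0.022) and Dhcr7 (-1.07 ± 0.28, adjusted p 0.030). Both desaturases and 2 of the 11 enzymes of the later sterol part were thus among the 5. Insig1, which rose in PSC4 and did not pass in KPC4, was not shown to differ between the lines (0.47 ± 0.33, adjusted p 0.40, edgeR).

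Of the 32 differences 26 were negative, with a median of -0.77 in the sterol branch and -0.82 in the fatty acid branch, beside -0.09 for all genes. Scd1, Scd2 and Insig2 passed in 12 of 12 fits that each left out 1 library. Sqle was lost in 4 of these, without PSC4 Control-SU replicate 3, PSC4 Gem-SU replicate 2 or KPC4 Control-PSC-SU replicate 1 or 3. Dhcr7 was lost in 7 of the 12, which were these 4 and those without PSC4 Control-SU replicate 2, PSC4 Gem-SU replicate 3 or KPC4 Gem-PSC-SU replicate 3. The count was 3 without any 1 of the libraries named for Sqle, and 8 without PSC4 Control-SU replicate 1, PSC4 Gem-SU replicate 1 or KPC4 Gem-PSC-SU replicate 1. With the replicate number of each line as a block, 20 of the 32 passed, 19 with the lower response in PSC4 and Acaca with the higher, against 21.9% of all genes, 9.95% with the higher response. Cell line, donor of the medium and experiment go together in this contrast and cannot be told apart.

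Levels between genes were compared per kilobase of exon, with all 12 libraries scaled together. Scd2 had the highest level of the 32 in the controls of both lines, 418 ± 93.3 CPM per kb (SD, n = 3) in PSC4 and 925 ± 67.8 in KPC4. Scd1 was next, with 188 ± 56.5 in PSC4 and 371 ± 23.5 in KPC4, and Cyp51 was the third, with 156 ± 24.7 and 190 ± 49.4. Acat2 (156 ± 37.5 in PSC4) and Fdps (189 ± 13.0 in KPC4) were within the error of Cyp51. The lowest was Acss2, with 5.26 ± 1.64 in PSC4 and 5.22 ± 0.717 in KPC4, and Tm7sf2 (5.58 ± 2.17 in PSC4) was within the error of Acss2. With Gem-SU, Scd2 in PSC4 stood at 108 ± 4.99 CPM per kb, below Idi1 (134 ± 15.5) and Insig1 (136 ± 19.9), so that it no longer led the list.

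Between the 2 control groups 11 of the 32 genes differed by edgeR's quasi-likelihood test, against 42.9% of all genes. Acat2 (log2 difference 0.73), Nsdhl (0.97) and Insig2 (0.51) were higher in PSC4. Fdps (-0.60), Tm7sf2 (-1.71), Dhcr7 (-1.09), Insig1 (-0.81), Srebf1 (-1.53), Stard4 (-0.91), Scd1 (-0.98) and Scd2 (-1.15) were lower in PSC4. With all 12 libraries scaled together, Srebf1 had 117 ± 23.9 CPM in PSC4 and 338 ± 25.1 CPM in KPC4. Srebf2 had 748 ± 164 and 795 ± 33.1 CPM, a log2 difference of -0.09 ± 0.17. Leaving out 1 control library at a time ended the call of Insig2 in 4 of 6 fits (without PSC4 replicate 1 or 2 or KPC4 replicate 1 or 2), of Fdps in 4 (without PSC4 replicate 1 or 2 or KPC4 replicate 2 or 3), of Acat2 in 3 (without PSC4 replicate 3 or KPC4 replicate 1 or 3) and of Insig1 in 1 (without KPC4 replicate 2). The other 7 were called in all 6. Line and medium go together in this contrast and cannot be told apart.

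**Figure D4:**
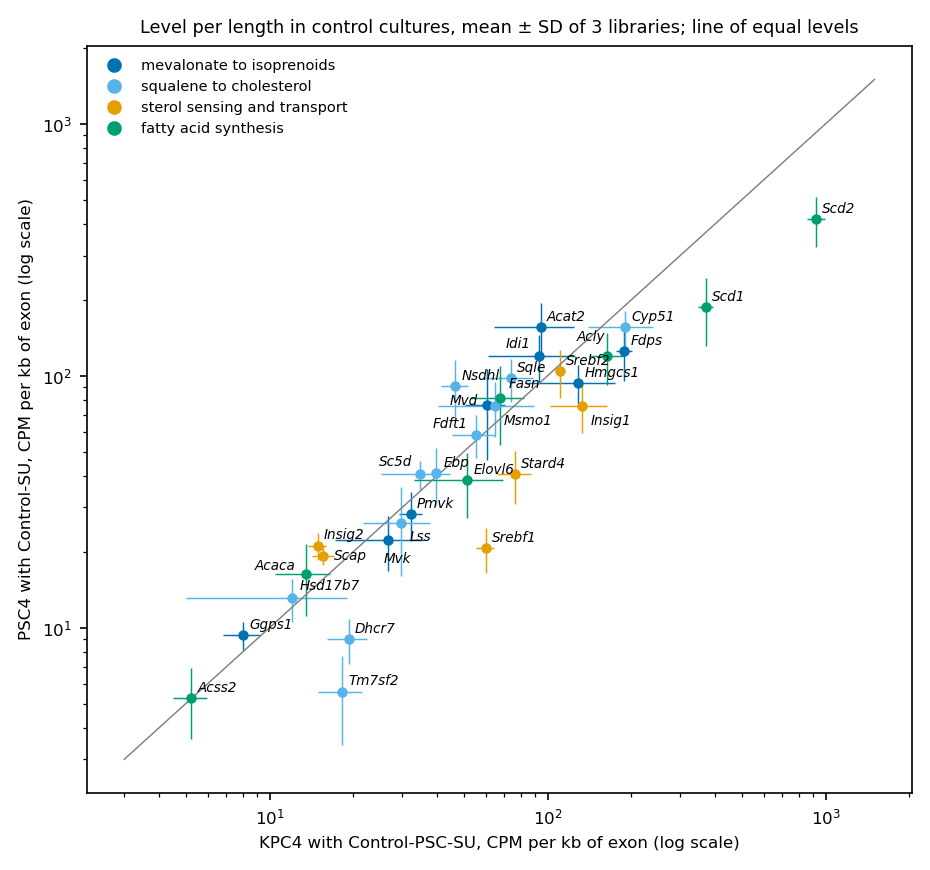
Mean level per kilobase of exon in the control cultures of KPC4 (horizontal) and PSC4 (vertical), both on log scales, with the SD of 3 libraries and the line of equal levels; colours give the role. Scd2 and Scd1 stand highest in both lines, and Srebf1, Tm7sf2, Dhcr7 and Stard4 lie below the line, at lower levels in PSC4.

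Other genes of lipid metabolism were taken from lists by function. Of 12 further lipogenic genes, 5 fell and 1 rose in PSC4 with Gem-SU (edgeR), with a median log2 fold change of -0.46. Read against the 46.3% of all genes that passed there, 22.0% lower and 24.3% higher, the share of this list that passed (50%) was near the background. The genes that fell included the polyunsaturated fatty acid desaturase Fads1 (-1.39), the elongase Elovl5 (-1.01) and the mitochondrial citrate carrier Slc25a1 (-1.29). The differences of Elovl5 (-1.09) and Fads1 (-1.20) between the lines also passed the test, with adjusted p of 0.0097 and 0.018 (edgeR). Of 6 tested genes of SREBP processing and degradation, 3 fell and 1 rose in PSC4 (66.7% passed, against 46.3% of all genes). Rnf145, a sterol-responsive ubiquitin ligase, fell by 1.77 on the log2 scale, Mbtps1, the first of the proteases that cut SREBPs, by 0.94, and the ubiquitin ligase Rnf139 by 0.49. The call of Rnf139 was lost without Control-SU replicate 2 or 3 or Gem-SU replicate 2 or 3 (adjusted p up to 0.062, edgeR).

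Of 10 tested genes of sterol export, storage and LXR, 4 rose and 2 fell in PSC4 (edgeR), against 24.3% of all genes higher and 22.0% lower. Mylip, a ligase that removes lipoprotein receptors, rose by 1.29, Soat1, which esterifies cholesterol for storage, rose by 0.58, and Lpcat3, a phospholipid acyltransferase, fell by 0.71. The call of Soat1 was lost without Control-SU replicate 3 or Gem-SU replicate 2 or 3 (adjusted p up to 0.090, edgeR). Of 11 genes of fatty acid oxidation, 4 rose and 4 fell in PSC4 (72.7% passed, against 46.3% of all genes). Cpt1a, the gate to mitochondrial oxidation, fell by 1.71 on the log2 scale, Cpt2, its partner, by 1.32, and Pdk4, which restrains pyruvate oxidation, rose by 1.25. The difference of Cpt1a between the lines was -1.50 (adjusted p 0.0050, edgeR).

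In KPC4, 0 of these genes passed edgeR's quasi-likelihood test. Among the smallest p of each list were those of Slc25a1 (log2 fold change -0.70), Elovl1 (-0.42) and Pcyt2 (0.43); Ube2g2 (0.62), Mbtps1 (-0.44) and Mbtps2 (-0.35); Nr1h2 (-0.35), Lpcat3 (-0.30) and Npc2 (-0.28); and Cpt2 (-0.79) and Cpt1a (-0.26).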

How the data were processed

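RNA of 12 cultures was sequenced, 6 per line. The authors deposited a table of whole-number counts per gene and library for each line, and their own comparison per line, listing each gene's log2 fold change with p-values before and after adjustment. Per the submitters' processing notes, FastQC, Trim Galore 0.6.10, cutadapt 5.2, Salmon, R 4.5.1, DESeq2 and the build GRCm39 were used. Annotation and counting settings are not given in the sources used here, and the counts may be rounded Salmon estimates, in which reads shared by similar genes are divided by a model.

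Identifiers were matched to symbols through GENCODE M21 (16329 of 16386 and 15265 of 15309). Each line was fitted alone with edgeR 4.0.16 in R 4.3.3: filterByExpr, TMM, the robust quasi-likelihood test and Benjamini-Hochberg adjustment over all genes, at 0.05. The difference between lines and the control levels came from 1 fit of 12 libraries over genes in both tables, 14360 before filtering. Fold changes and SEs come from these fits, CPM values from the counts and the scaled library sizes. The scripts were tested on simulated data. Every pair of libraries within a group differed by more than sampling noise (chi-square per degree of freedom of 30.4 or more), so all 12 were counted.

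The members and lists were chosen with earlier results of these data known. All 32 are accounted for. Libraries are listed for the 6 regulators, for the 3 members of each branch and line with the largest called changes in each direction (or the 3 smallest p where none was called) and for members with a called difference between lines. Of the other lists, the 3 smallest p per line are named, except 1 gene that is not reported here. Other values given by library were chosen after they were seen.

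The labels number replicates 1 to 3 in each group without saying what a number shares. Deviations from the group means of same-numbered libraries correlated at 0.45, 0.545 and 0.355 in KPC4, where the blocked fits are given in the text, and at 0.599, -0.032 and 0.101 in PSC4. Alternatives were another scaling, other filters, DESeq2 1.42.0, no robust estimation, the replicate block, 1 fit of 12 libraries and leaving out each library. Exon length is the union of GENCODE M21 exons. Promoters are RefSeq sequences of GRCm38.p6, not the build of the counts, so no coordinates were joined to counts. With 3 libraries per group, precision was limited by the spread between cultures and not by depth for these genes.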

Additional observations from a re-analysis of the deposited data

Results flagged for a closer look

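The difference of response between the lines, PSC4 minus KPC4, passed for 5 of the 32 genes by edgeR's quasi-likelihood test and Benjamini-Hochberg adjustment. The log2 differences were -1.16 for Sqle (adjusted p 0.022), -1.07 for Dhcr7 (adjusted p 0.030), -1.15 for Insig2 (adjusted p 0.011), -1.81 for Scd1 (adjusted p 0.0038) and -1.63 for Scd2 (adjusted p 0.0050). For Insig2, all 3 Gem-SU libraries of PSC4 were below the control mean and all 3 Gem-PSC-SU libraries of KPC4 above it. For Scd1, all 3 Gem-SU libraries of PSC4 were below the lowest control, and the 3 Gem-PSC-SU libraries of KPC4 lay on both sides of the controls. No cause was tested.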

How the results depend on the processing

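The members called and the branch medians were recomputed under each alternative. In PSC4 the count of called genes among the 32 ranged from 12 to 18 around 15, and the 15 were all called under DESeq2, the replicate block, both other filters and the other scaling. Hsd17b7 was also called higher under DESeq2, the replicate block, the filter of 10 counts in every library and without Control-SU replicate 3 or Gem-SU replicate 1, and Acat2 and Lss were called lower under DESeq2 and the block. In PSC4 the replicate block gave 18 of the 32, against 54.4% of all genes, and replicates 2 and 3 correlated better with another number than with their own. The sterol median in PSC4 ranged from -0.69 to -0.30 when 1 library was left out, and the count over all genes from 4061 (without Gem-SU replicate 2) to 6826, around 6177.

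In KPC4, 0 genes in all were called, and 1171 with the replicate block, 823 with DESeq2, 610 in 1 fit of 12 libraries and 0 to 1129 when 1 library was left out, the last without Gem-PSC-SU replicate 1. Of the 32 the block called 4, and leaving out 1 library called 0 to 1, the 1 being Pmvk in the fit that called 1129 genes in all. When 1 library was left out, the fatty acid median ranged from -0.35 to -0.027.

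For the difference between the lines, 1343 genes in all were called, 2988 with the block, 2148 with DESeq2, and 610 (without PSC4 Gem-SU replicate 2) to 1993 with 1 library left out. Of the 32, the block called 20, 19 with the lower response in PSC4 and Acaca with the higher, against 21.9% of all genes; DESeq2 called 11, and leaving out 1 library gave 3 to 8. The block and DESeq2 both called the 5 genes named; the cause of the higher counts was not tested.

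Some small fold changes that were not called changed sign when 1 library was left out. In PSC4 the ranges were -0.050 to 0.12 for Ggps1, -0.15 to 0.31 for Fasn, -0.049 to 0.43 for Acaca, -0.038 to 0.15 for Scap, -0.27 to 0.063 for Mvk and -0.20 to 0.085 for Acly. In KPC4 they were -0.092 to 0.38 for Acat2, -0.16 to 0.22 for Fdft1, -0.11 to 0.33 for Lss, -0.14 to 0.33 for Sc5d, -0.12 to 0.095 for Scd1, -0.076 to 0.13 for Acss2, -0.21 to 0.091 for Mvd, -0.18 to 0.092 for Ggps1, -0.11 to 0.058 for Ebp, -0.23 to 0.018 for Dhcr7, -0.20 to 0.044 for Fdps and -0.026 to 0.75 for Msmo1. For the difference between the lines they were -0.12 to 0.15 for Ggps1, -0.38 to 0.18 for Tm7sf2 and -0.84 to 0.43 for Hsd17b7. In KPC4, Ebp was at 0.0062 with DESeq2's size factors and 0.0062 in DESeq2's test, and Scd1 at -6.49e-05 with the block. Depth did not limit these genes; 3 libraries per group did, and where 1 was left out the test pooled the spread of the rest.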
